A study of Mus musculus with 4 samples.

Results

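The genes described here were the microRNA genes outside the large imprinted cluster on chromosome 12 and outside the 8 muscle microRNA genes (Mir1a-1, Mir1a-2, Mir133a-1, Mir133a-2, Mir133b, Mir206, Mir486 and Mir499). They were chosen by measured values, since a mean of at least 1 RPKM (reads scaled by gene length and by library size) over the 4 libraries was required. This left 263 genes of the 2133 microRNA genes outside both groups and of the 55573 genes in the table. The other 1870 were listed at 0 in every library, so the limit of 1 RPKM removed no gene that had a read. The weakest gene inside the limit, Mir3473f, had 2.03 RPKM, which was 1 read in the whole series. By symbol, 28 of the 263 were not named as microRNAs, among them Snord43, a small nucleolar RNA gene in Rpl3. Reads were unevenly spread over the genes: 107 had at least 20 reads over the 4 libraries together, 54 rested on 1 read each, and the median gene had 10.

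MicroRNA genes make hairpin transcripts that are cut into a short mature strand, which is loaded into an Argonaute protein and guides it to messenger RNAs. Target choice rests mainly on the seed, bases 2 to 8 of the mature strand, so that microRNAs with the same seed form a family. MicroRNA genes are not translated, and their rows in a ribosome profiling table count RNA that went through the same nuclease digestion, column and gel as the ribosome-protected fragments.

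Libraries were made from primary myoblasts, the dividing muscle precursor cells, of hind-limb muscle from 3-week-old mice, collected on day 2 of proliferation with FGF and held with cycloheximide. There were 2 WT libraries and 2 libraries labelled eIF5A-KO, from tamoxifen-induced knockout mice whose floxed eIF5A was cut by a Cre recombinase driven from Pax7, a satellite cell gene, and from their WT littermates. The study describes WT controls in one place as mice with the Pax7-driven Cre and in another as mice with floxed eIF5A and no Cre, and for these cultures it names only WT littermates. The sources used here do not say whether the libraries of a group came from separate mice, so that p-values measure only the spread between these libraries. The sample titles name the assay Polysome-Seq, while the extraction text describes RNase I footprints. Eif5a itself, the targeted gene, had 34.9 and 65.2 RPKM in WT libraries 1 and 2, and 60.3 and 59.4 RPKM in eIF5A-KO libraries 1 and 2 (log2 fold change 0.32 ± 0.48, SE, adjusted p = 0.839 by limma). Its level thus did not separate the groups, and the groups are called by their labels throughout. Totals of recovered reads were 642429 to 704006 per library. Myogenic marker mRNAs were present (6 of 7 with at least 20 reads), and they summed to 316 RPKM in WT library 1, 188 in WT library 2, 68.7 in eIF5A-KO library 1 and 112 in eIF5A-KO library 2. In bulk cultures, fewer cells of a type and less RNA per cell cannot be told apart.

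Mature sequences were found in RefSeq (GRCm38.p6) for 216 of the 263 genes and for 98 of the 107 with at least 20 reads. Those of the 98 genes were between 19 and 26 bases long, with a median of 22. Among them 24 seeds were shared by at least 2 genes. The families printed here are those whose genes held most reads or whose genes differed most in the comparison, with the seed in capitals and the strand of the hairpin that carries the shared seed. The table gives 1 value per hairpin gene, so the strand that was read cannot be told. The strongest family was that of miR-10, next to which stands the related miR-99, with a different seed:
mmu-miR-10a-5p: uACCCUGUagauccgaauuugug
mmu-miR-10b-5p: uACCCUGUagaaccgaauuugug
mmu-miR-99a-5p: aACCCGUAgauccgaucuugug
mmu-miR-99b-5p: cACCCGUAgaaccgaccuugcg
Among the seeds shared by at least 2 of the 98 genes, those of the miR-148 family, the let-7 family, a classical brake on proliferation, and miR-146 followed in level:
mmu-miR-148a-3p: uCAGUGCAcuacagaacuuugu
mmu-miR-148b-3p: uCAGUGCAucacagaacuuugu
mmu-miR-152-3p: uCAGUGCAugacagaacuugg
mmu-let-7g-5p: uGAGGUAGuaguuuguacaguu
mmu-let-7f-5p: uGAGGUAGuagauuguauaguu
mmu-miR-98-5p: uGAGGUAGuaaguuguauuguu
mmu-miR-146a-5p: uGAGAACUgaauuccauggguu
mmu-miR-146b-5p: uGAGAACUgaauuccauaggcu
Another set is shown because its genes were among the lowest in the libraries labelled KO. It leaves out Mir15b (31 reads), which shares the seed of miR-322 and miR-195a, at a log2 fold change of -0.84:
mmu-miR-132-3p: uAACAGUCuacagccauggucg
mmu-miR-212-3p: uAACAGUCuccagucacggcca
mmu-miR-193a-3p: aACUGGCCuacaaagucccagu
mmu-miR-193b-3p: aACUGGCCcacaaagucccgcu
mmu-miR-322-5p: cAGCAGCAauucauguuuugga
mmu-miR-195a-5p: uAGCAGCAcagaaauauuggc
The last set is shown because genes with 1 seed parted in direction with all libraries in the fit (miR-20b and miR-106b, miR-363 and miR-92a) or because the fold change was near 0 (miR-128):
mmu-miR-20b-5p: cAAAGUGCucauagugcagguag
mmu-miR-106b-5p: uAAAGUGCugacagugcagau
mmu-miR-363-3p: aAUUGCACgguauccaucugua
mmu-miR-92a-3p: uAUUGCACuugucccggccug
mmu-miR-128-3p: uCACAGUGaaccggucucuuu

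The 263 genes together took a larger share of the WT libraries than of those labelled KO, and WT library 2 stood far apart. WT libraries 1 and 2 held 27164 and 106073 such reads, whereas eIF5A-KO libraries 1 and 2 held 15914 and 18149. As shares of all recovered reads these were 4.19% (95% Wilson interval 4.14% to 4.24%), 16.5% (16.4% to 16.6%), 2.26% (2.23% to 2.30%) and 2.79% (2.75% to 2.83%). Both WT libraries were above both of the others, yet WT library 2 was farther from WT library 1 than WT library 1 was from the libraries labelled KO. The intervals cover counting error only, since PCR copies are not independent molecules. In summed RPKM the means were 1717650 ± 1609880 (SD, n = 2) for WT and 258055 ± 45160 (SD, n = 2) for eIF5A-KO, a 6.66-fold difference. With 2 libraries against 2, the two-sided permutation test (exact) stood at p = 0.333, its lowest possible value. Without WT library 2 the log2 ratio of the summed RPKM moved from -2.73 to -1.17, and without WT library 1 to -3.47.

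Other small RNA genes were set beside them. Over the chromosome 12 microRNA cluster the reads were 732, 1792, 377 and 385 in WT libraries 1 and 2 and eIF5A-KO libraries 1 and 2. The same order of libraries was seen there, and the ratio of the reads of the 263 genes to those of the cluster was 37.1, 59.2, 42.2 and 47.1. This ratio overlapped between the groups (48.2 ± 15.6 against 44.7 ± 3.48, SD, n = 2, exact permutation p = 1). The snoRNA genes, in contrast, had 6325, 2245, 1753 and 2295 reads, and there it was WT library 1 that stood out. Protein-coding genes took 41.5% and 33.9% of the WT reads and 65.4% and 59.2% of the reads labelled KO, and mitochondrial rRNA moved the other way with 39.1% and 30.1% against 15.0% and 18.5%. The part of these shifts in the microRNA values was not tested.

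**Figure D1:**
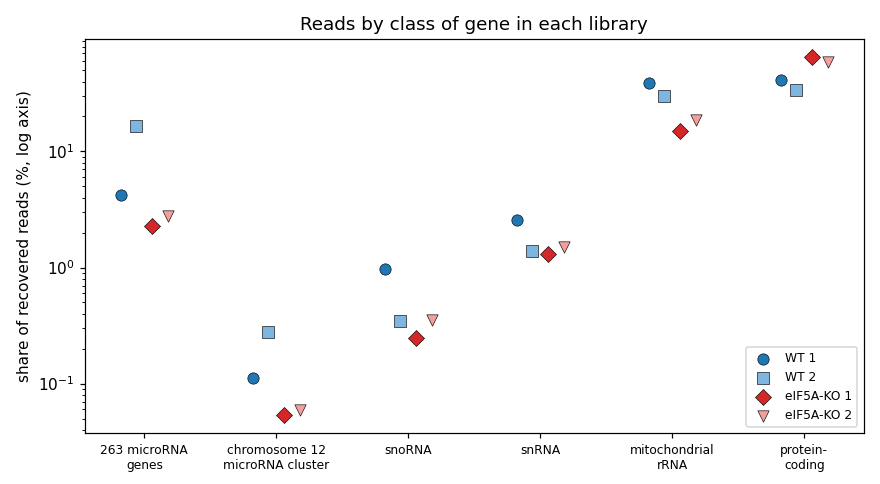
Share of recovered reads on each class of gene, in percent on a log axis, with 1 point per library (blue WT, red eIF5A-KO). For the 263 microRNA genes WT library 2 lies at 16.5%, above the 4.19% of WT library 1 and the 2.26% and 2.79% of the libraries labelled KO, while for snoRNA genes WT library 1 is the highest.

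A few genes carried most of this signal. The 5 genes with the highest mean RPKM (Mir10b, Mir99a, Mir148a, Mir10a and Mir143) held 56.3%, 74.3%, 59.5% and 57.0% of the reads of the 263 genes in WT libraries 1 and 2 and eIF5A-KO libraries 1 and 2. Mir10b alone held 12.2%, 23.4%, 8.59% and 10.8%. The share of these leading genes was thus highest in WT library 2 and similar in the other libraries. Over the 107 genes with at least 20 reads, the rank correlation of the reads was 0.92 between the libraries labelled KO and 0.82 between the WT libraries, and 0.78 to 0.86 across groups. These correlations describe 107 genes in shared libraries and are not replicates.

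Mir10b had the highest mean RPKM of the 263 genes, and Mir99a, Mir148a and Mir10a followed it. Mir10b, in the HoxD cluster (chr2:74726070-74726137, plus strand, GRCm38), had 80913 and 776347 RPKM in WT libraries 1 and 2 and 22164 and 35631 RPKM in eIF5A-KO libraries 1 and 2. Its sister Mir10a, in the HoxB cluster (chr11:96317165-96317274, plus strand), had 35316 and 290247 RPKM against 13962 and 19415 RPKM. Both were higher in each WT library than in either library labelled KO, and in both WT library 2 was the outlying one. Their log2 fold changes on log2(RPKM + 1) were -3.16 ± 1.5 and -2.62 ± 1.35 (SE), with adjusted p = 0.676 and 0.68 by limma, so the differences did not pass the test across all genes. Mir99a, in the same hairpin cluster as Mirlet7c-1 on chromosome 16, had 78012 and 544413 RPKM against 24460 and 32533 RPKM (log2 fold change -2.87 ± 1.40, SE, adjusted p = 0.676). Mir99b, its copy within Spaca6, stood at 5024 and 17526 RPKM in WT and at 1055 and 990 RPKM in the libraries labelled KO. The pattern was the same in all 4 genes, with less spread in Mir99b.

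Mir148a, known from liver and from differentiating myoblasts, had 63904 and 379976 RPKM in WT against 28009 and 26537 RPKM in eIF5A-KO. Mir152, of the same seed family, had 3340 and 24046 RPKM against 936 and 1119 RPKM. Mir148b, the remaining member, had 1590 and 2495 RPKM against 1125 and 1008 RPKM. The groups did not overlap in any of these genes, while the distance between them was smallest in Mir148b, with log2 fold changes of -2.51 ± 1.33, -3.13 ± 1.07 and -0.90 ± 0.64 (SE). Mirlet7g, the strongest let-7 gene, showed 19208 and 98167 RPKM against 5488 and 8807 RPKM. Mir146 and Mir146b, whose products dampen inflammatory signalling, showed 8574 and 26189 RPKM against 1781 and 1848 RPKM, and 6939 and 24750 RPKM against 1507 and 2851 RPKM. All of these were lower in both libraries labelled KO.

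The smooth muscle and fibroblast microRNA Mir143 was the main exception in size. It had 72458 and 151171 RPKM in WT and 48250 and 55635 RPKM in eIF5A-KO (log2 fold change -1.01 ± 1.16, SE, adjusted p = 0.781). In reads it had 2752 and 4487 in WT and 2757 and 2831 in eIF5A-KO, so that WT library 1 was level with the libraries labelled KO, and its separation from them in RPKM rests on the library sizes by which the authors divided. Mir30a and Mir320 were also closer between groups than the miR-10 genes, with 23386 and 44663 RPKM against 13029 and 15118 RPKM, and 15111 and 23037 RPKM against 5405 and 9240 RPKM. The last 2 of the 12 strongest genes were Mir151, in Ptk2, at 24735 and 73352 RPKM against 8253 and 11088 RPKM, and Mir1981, at 5057 and 33883 RPKM against 1869 and 3639 RPKM. In each of the 12 the lower WT library was above the higher library labelled KO, as in 21% of all genes with at least 20 reads.

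**Figure D2:**
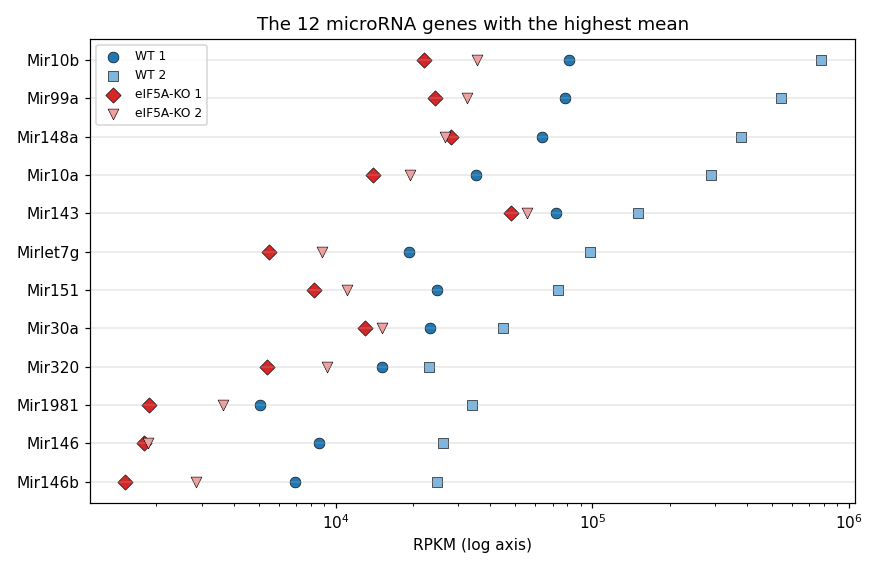
RPKM on a log axis for the 12 microRNA genes with the highest mean, 1 point per library (blue WT, red eIF5A-KO). In each row both red points lie to the left of both blue points, and WT library 2 lies farthest to the right, at 776347 RPKM for Mir10b.

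Across the genes the direction was one-sided and the tests were weak. Of the 107 genes with at least 20 reads, 76 had both WT values above both values labelled KO and 0 had the reverse, whereas among all 8962 tested genes with as many reads 21% were lower and 22.7% were higher without overlap. In recovered reads, before any scaling, 57 of the 107 were lower without overlap, beside 4.54% of all genes with as many reads. Log2 fold changes were below 0 in 102 of the 107 and had a median of -1.79 (middle 50% of genes -2.59 to -1.09). Over all 11363 tested genes the median was 0.00026, and over the 74 snoRNA and 50 snRNA genes with at least 20 reads it was -1.11 and -1.38. Over the 12 microRNA genes of the chromosome 12 cluster with as many reads it was -2.13, with 10 below 0. WT library 2 exceeded WT library 1 in 93 of the 107, and with WT library 2 left out 94 of the 107 still had a log2 fold change below 0, with a median of -1.18. With libraries scaled to the same total of reads the median of the 107 was -1.17, beside a shift of 0.47 in the median of all genes, and 92 were below 0.

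By limma with Benjamini-Hochberg adjustment over all genes, 5 of the 263 genes were called lower (background 0.0968% of tested genes) and 1 higher (background 0.0088%). With at least 20 reads, 0 of the 107 and 0 of all 8962 tested genes were called in either direction. The 6 calls were Mir881, Mir1945, Mir190b, Mir3062 and Mir5620, with 1 or 2 reads in each WT library and 0 in those labelled KO, and Gm24195, with 0 reads in WT and 3 and 2 in those labelled KO. No fold is given for them, since neither group exceeded the floor of 3 reads per library, and the calls rest on 2 to 5 reads each. At an unadjusted p-value under 0.05 with a change over 2-fold, the rule that the study states for its RNA-seq, 57 of the 263 genes were lower and 1, Gm24195, was higher, where 4.29% and 2.67% of all tested genes were. Of the 107 genes, 37 were lower and 0 higher by that rule, beside 3.85% and 2.62% of all tested genes with at least 20 reads.

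A fit to the recovered reads (limma-voom with the authors' library sizes) put 16 of the 107 genes below WT and 0 above it at an adjusted p-value under 0.05, against 39 lower (0.425%) and 0 higher (0%) of all 9179 genes fitted. The 16 were Mir532, Mir99b, Mir146, Mir224, Mir132, Mir152, Mir195a, Mir28a, Mir181d, Mir501, Mir1198, Mir150, Mir146b, Mir423, Mir674 and Mir139. They had 121 to 2127 reads each, their log2 fold changes were -2.34 to -3.87, and in all 16 the groups did not overlap in RPKM. None of the 4 strongest genes was among them. The calls depended on the scaling: with read totals as library sizes 0 of the 107 were called and the adjusted p of the 16 was 0.143 to 0.146, with all 16 still below 0. With a library left out 1 group has a single library, which is assumed to vary like the other group, so these counts rest on the spread of that group alone. Leaving out WT library 2 gave 20 calls among the 107, 14 of them shared with the 16, and 239 lower and 63 higher over all genes. Leaving out WT library 1 gave 66, and 135 lower and 7 higher over all genes. Without eIF5A-KO library 1 there were 6 of 16 lower calls, with 0 higher, and without eIF5A-KO library 2 there were 19 of 42, with 1 higher.

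**Figure D3:**
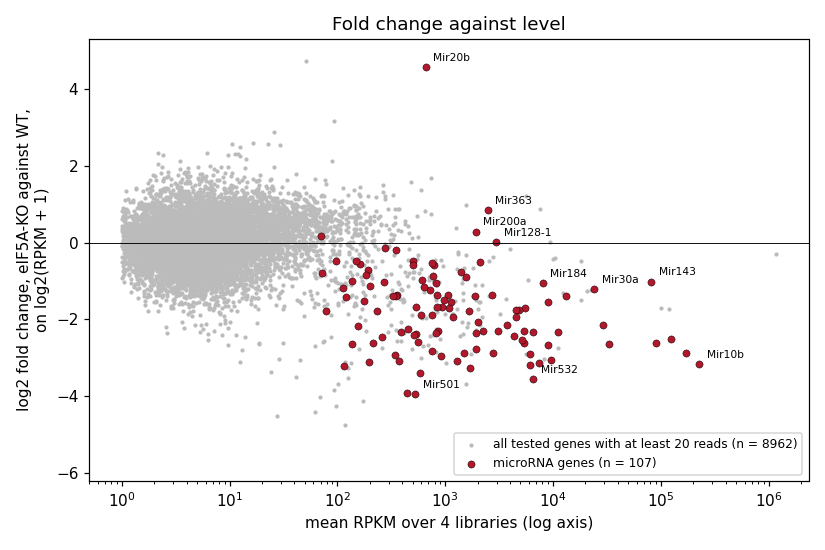
Log2 fold change of eIF5A-KO against WT on log2(RPKM + 1), plotted against the mean RPKM on a log axis, for 8962 genes with at least 20 reads (grey) and the 107 microRNA genes among them (red). The red points lie mostly below 0, around a median of -1.79, with Mir20b, Mir363, Mir200a, Mir7b and Mir128-1 above 0.

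The genes with the lowest fold changes among those whose groups did not overlap included an X-linked cluster. Mir501 and Mir532 lie with Mir500 and Mir362 in introns of the chloride transporter gene Clcn5 (chrX:7237683-7248497, minus strand). Mir532 had 3974 and 20540 RPKM in WT and 586 and 1006 RPKM in eIF5A-KO (log2 fold change -3.56 ± 0.98, SE, adjusted p = 0.635 by limma and 0.00625 by limma-voom). Mir501 had 533 and 1460 RPKM against 40.5 and 79.5 RPKM, from 35, 75, 4 and 7 reads. Both were many-fold lower in each library labelled KO. Of their neighbours, Mir362 had 9, 7, 4 and 1 reads, while Mir500 had 3, 5, 6 and 5 and overlapped between the groups. Mir193a and Mir193b, which share a seed and lie on different chromosomes, had 13, 42, 3 and 2 reads and 12, 6, 2 and 1 reads. Mir872, in Ift74, had 512 and 1651 RPKM against 54.4 and 138 RPKM. Mir322, the mouse miR-424 gene that is known to be induced when myoblasts differentiate, had 437 and 6055 RPKM against 244 and 117 RPKM. In Mir322 the WT libraries were farther apart than WT library 1 was from the libraries labelled KO.

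Families were then compared by their summed RPKM. For miR-10 with miR-99, miR-100 and miR-125, 5 genes with reads summed to 199896 and 1629190 RPKM in WT and to 61828 and 88657 RPKM in eIF5A-KO. The 5 let-7 genes with reads summed to 21637 and 114789 RPKM against 6692 and 12096 RPKM, and the 7 genes of the miR-15 and miR-16 family, which restrains the cell cycle, to 2441 and 13738 RPKM against 735 and 1030 RPKM. Mir23a, Mir27a and Mir23b together had 6050 and 33892 RPKM against 3126 and 4815 RPKM. In these families both groups stayed apart in the summed RPKM, and no member passed the adjusted test by limma. In reads Mir23a, Mir27a and Mir23b summed to 288 and 1224 in WT and to 223 and 309 in eIF5A-KO. The separation of that sum thus rests on the authors' library sizes. Gene by gene, RPKM was lower without overlap in 5 of 5 of the miR-10 group, 4 of 4 of miR-15 and miR-16 and 3 of 3 of miR-23. These are genes with at least 20 reads, and of all such genes 21% were lower without overlap. In reads Mir23a (70, 535, 94 and 91), Mir27a (115, 236, 80 and 134) and Mir15b (12, 5, 8 and 6) overlapped. Of 3 let-7 genes 1 was lower without overlap in RPKM, since Mirlet7f-2 and Mir98 overlapped and Mirlet7g held most of the let-7 sum. Mir221 and Mir222, regulators of the cell cycle inhibitor p27, had 7307 and 26074 RPKM against 2870 and 3473 RPKM. The miR-181 genes, led by Mir181d, had 6316 and 13077 RPKM against 1127 and 2269 RPKM, and of the 3 with at least 20 reads Mir181a-1 and Mir181c overlapped between the groups. Every one of these sums was lower in both libraries labelled KO. Mir29a led the miR-29 genes, at 2733 and 9882 RPKM against 1215 and 1157 RPKM, and Mir26b the miR-26 genes, at 2010 and 16930 RPKM against 895 and 1107 RPKM. Mir199b was the one miR-199 or miR-214 gene with reads, at 483 and 1987 RPKM against 221 and 315 RPKM. These sums too did not overlap, and WT library 2 was the highest in each. The miR-30 genes, 24008 and 45859 RPKM against 13443 and 15494 RPKM, and miR-143 with miR-145, 74899 and 163816 RPKM against 49982 and 57174 RPKM, had the smallest ratios among families without overlap. In reads miR-143 with miR-145 had 2855 and 4904 against 2867 and 2918, an overlap. The 6 genes of the Sfmbt2 intron cluster with reads, led by Mir669c, had 7 and 13 reads in WT and 3 and 3 reads in eIF5A-KO in all.

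**Figure D4:**
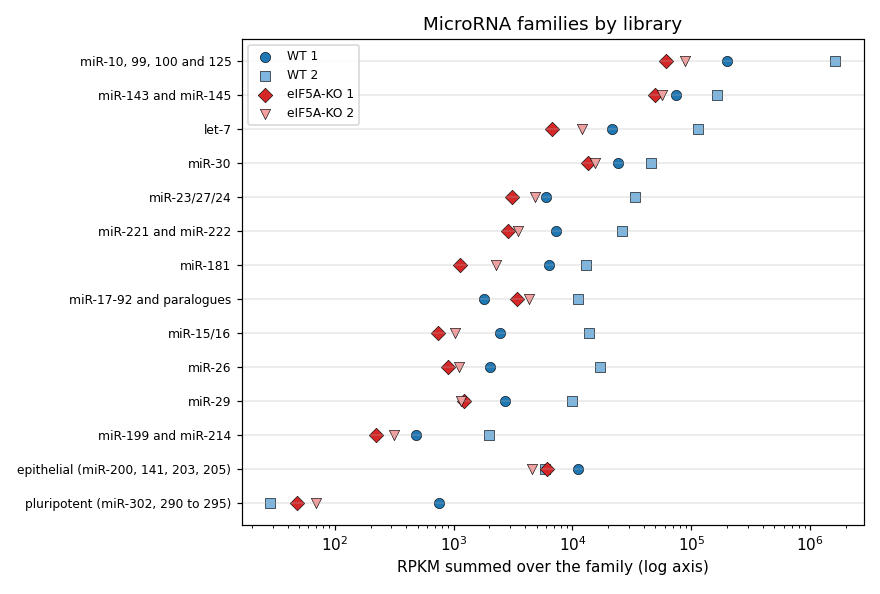
RPKM summed over each microRNA family on a log axis, 1 point per library (blue WT, red eIF5A-KO). Both red points lie to the left of both blue points except for the miR-17-92 paralogues, the epithelial list and the pluripotent list, in which WT libraries 1 and 2 lie on either side or overlap with the red points.

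Some genes went another way, and they are named here after their values were seen. On the X chromosome, Mir363, Mir92-2, Mir20b and Mir18b form one of the paralogues of the proliferative miR-17-92 cluster within 1 kb. Mir363 had 14, 180, 134 and 155 reads in WT libraries 1 and 2 and eIF5A-KO libraries 1 and 2, and Mir20b had 0, 41, 56 and 51 reads. Their log2 fold changes were 0.84 ± 1.34 and 4.57 ± 2.98 (SE), but -1.18 and -0.48 without WT library 1, so that their direction rested on that library. The size for Mir20b rested on the 0 there, since its mean was 544 RPKM in WT and 781 RPKM in eIF5A-KO. Both were scarce in WT library 1. Mir92-2, less than 1 kb away, had 27, 92, 17 and 37 reads and did not share this pattern. The family as a whole, 5 genes, had 1793 and 11201 RPKM in WT and 3418 and 4274 RPKM in eIF5A-KO, so that the groups overlapped. Within seeds, Mir106b, which shares that of Mir20b, had 991 and 2847 RPKM against 471 and 408 RPKM, lower without overlap. Mir128-1 and Mir128-2, which give the same mature strand from introns of R3hdm1 and Arpp21, had log2 fold changes of 0.02 ± 0.82 and -0.19 ± 0.65 (SE). At 1588 and 4700 RPKM against 2378 and 3237 RPKM, Mir128-1 lay in eIF5A-KO between the WT libraries.

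Markers of other cell types were read in the same way. Of the 7 epithelial microRNA genes, 4 had reads and summed to 11179 and 5922 RPKM in WT and 6086 and 4604 RPKM in eIF5A-KO, an overlap. Mir200a had 2433 and 1014 RPKM against 3001 and 1224 RPKM, while its neighbour Mir200b had 2370 and 2547 RPKM against 1638 and 1822 RPKM. Mir203 had 3972 and 1592 RPKM against 1016 and 912 RPKM, and Mir200c had 2404 and 769 RPKM against 431 and 646 RPKM. Of the 4, Mir200a alone overlapped between the groups in RPKM. The other 3 were lower without overlap in eIF5A-KO, where 21% of all genes with at least 20 reads were. In reads Mir200b had 100, 84, 104 and 103, Mir203 had 182, 57, 70 and 56, and Mir200c had 100, 25, 27 and 36. The separation of these 3 thus rests on the authors' library sizes. Of the 13 genes of pluripotent cells, 4 had reads, the miR-302 genes, with 32 reads in WT library 1 and 1, 3 and 4 in the others, so they were nearly confined to WT library 1. Mir184, a microRNA of the cornea and lens named after its values were seen, showed the same library more strongly, with 27454 RPKM there against 615 RPKM in WT library 2 and 1694 and 2351 RPKM in eIF5A-KO. Of 7 blood genes 2 had reads, led by Mir150, at 1735 and 4866 RPKM against 662 and 495 RPKM. The endothelial (2), neural (6) and liver (1) genes were all listed at 0 and all but 1 of them overlap exons of other genes. Among mRNA markers, the fibroblast list summed to 444 and 250 RPKM in WT and 750 and 327 RPKM in eIF5A-KO, the endothelial list to 106 and 99.8 against 139 and 112 RPKM, and the immune list to 38.5 RPKM at most in any library. The part of cell mixture in the microRNA values was not tested.

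Scaling each library to the sum of the 263 genes compares their composition alone. On that scale 36 of the 107 genes were below 0 and 71 above, the median was 0.55, and 14 were lower without overlap. Over all tested genes the median on that scale was 1.90, and 0.257% of those with at least 20 reads were lower without overlap. Mir143 then had a log2 fold change of 1.33 and Mir30a of 1.14, while Mir10b stayed at -0.81 and Mir532 at -1.21. The composition is set largely by the 5 leading genes, whose share was highest in WT library 2.

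Many microRNA genes lie in introns of protein-coding genes, so the values of both were compared. Of the 107 genes, 54 lay within a protein-coding gene on the same strand (GENCODE M21), and in 32 pairs, with 29 different surrounding genes, the latter had at least 20 reads and was tested. Log2 fold changes had a median of -2.11 in the 32 microRNA genes and of 0.04 in the 29 surrounding genes, of which 17 were above 0. In 30 of the 32 pairs the microRNA gene had the lower value, and the exceptions were Mir340 in Rnf130 and Mir652 in Tmem164. For Mir532, Mir501 and Mir362 the values were -3.56, -3.93 and -2.63, against 0.50 ± 0.46 (SE) for Clcn5. Mir152 was at -3.13 and Copz2 around it at 1.26 ± 0.60 (SE). Mirlet7g was at -2.64 and Wdr82, the chromatin regulator around it, at -0.09 ± 0.37 (SE). By limma 0 of the 29 surrounding genes were called, at adjusted or unadjusted p under 0.05. Of all tested genes with at least 20 reads, 0 were called at adjusted p, and at unadjusted p 4.06% were lower and 2.86% higher. These values come from the same 4 libraries, and the mRNA reads come from exons while the microRNA hairpins lie in introns. Members in such genes and elsewhere had medians of -2.11 and -1.75.

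**Figure D5:**
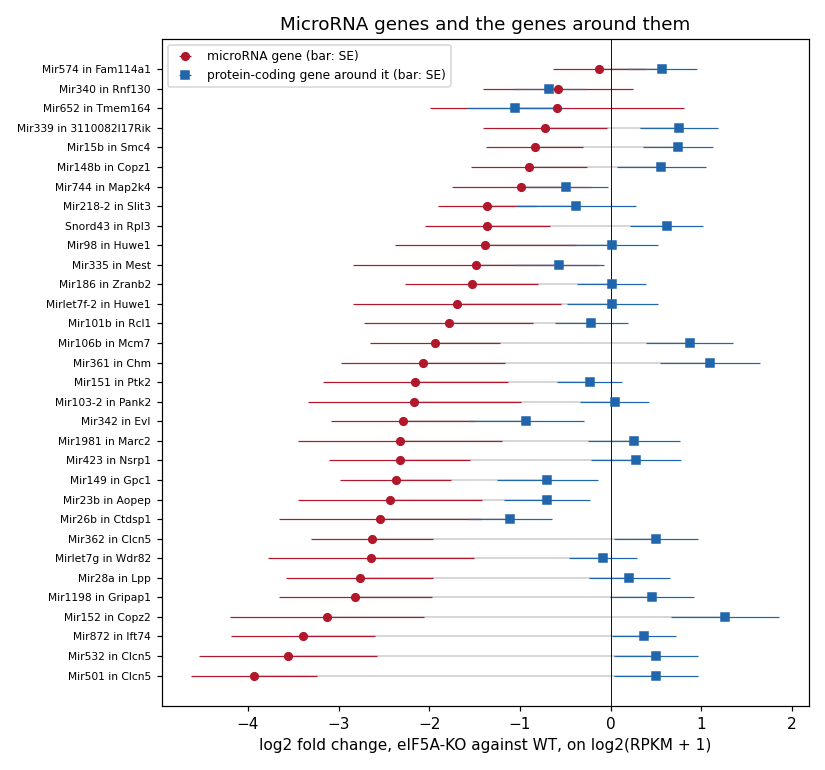
Log2 fold change of eIF5A-KO against WT on log2(RPKM + 1) for 32 microRNA genes (red circles) and the protein-coding genes around them (blue squares), with bars for the SE of the fit. The red points have a median of -2.11 and the blue points lie around 0, from -1.11 to 1.26, and the order is reversed for Mir340 and Mir652.

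Several microRNAs known to be abundant in many cells were listed at 0 in all libraries. Those named here were chosen after their values were seen, for lying on an exon of another annotated gene. Mir21a lies on Vmp1, Mir22 on Mir22hg and Tlcd2, Mir25 and Mir93 on Mcm7, Mir17 on Mir17hg, and Mir214 and Mir199a-2 on Dnm3os. Mir24-1, Mir24-2, Mir27b, Mir125a, Mir191, Mirlet7i, Mir30d, Mir31, Mir155, Mir126a and Mir100 also overlapped such an exon. Of the 2133 microRNA genes outside the cluster and the muscle list, 555 overlapped an exon of another gene on either strand, and 22 of these (3.96%) had any read. Of the 1578 that overlapped none, 241 (15.3%) had reads, so that 1337 genes clear of such exons were at 0 as well. In the list of satellite cell and myoblast microRNAs 17 of 32 genes were at 0, and 14 of the 17 lie on exons. In the list for the Sfmbt2 intron cluster, picked by gene name and not by position, 75 of 81 genes were at 0, and 0 of them lie on exons. The overlapping genes held 524 of the 167300 reads (0.313%), with at most 152 on 1 gene, Mir30b. Those with at least 20 reads were Mir30b, Mir328, Mir484, Mir125b-2, Mir181a-1 and Mir34a. The counting settings for reads that fall on more than 1 gene are not given in the sources used here, and their part in these zeros was not tested. A 0 for such a gene is therefore not read as absence, and family sums, such as that of let-7 with 7 of 12 genes on exons and at 0, leave those genes out.

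The hairpin's other features went with the values only loosely. Across the 107 genes the rank correlation of the log2 fold change with the mean RPKM was -0.28. The mean holds the same values as the fold change, so this correlation is partly built in. With the length of the longer mature strand the rank correlation was 0.13 over 98 genes. With the GC content of the hairpin, 30.5% to 69.2%, it was 0.03 over 91 genes. Genes on the X chromosome (23 of the 107) had a median of -2.29 and those on autosomes of -1.76. By position, 57 of the 263 genes fell into 22 clusters within 10 kb, and neighbours differed widely in reads, as for Mir99a with 22879 and Mirlet7c-1 with 18. All of these describe genes in shared libraries.

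Genes that make and use microRNAs were examined last. Of 22 listed genes in the table, 19 were tested and 0 were called by limma or limma-voom. By limma 0 of all 8962 tested genes with at least 20 reads were called either. At an unadjusted p under 0.05 limma had 0 lower and 1 higher (4.46% and 2.86% of all tested genes). At that level limma-voom had 3 in all, where 6.66% of all genes fitted were lower and 3.48% higher. The one by limma was Xpo5, the exporter of hairpins from the nucleus, with 7.50 and 7.74 RPKM in WT and 19.3 and 16.8 RPKM in eIF5A-KO (log2 fold change 1.14 ± 0.37, SE, adjusted p = 0.66). Its values were higher in both libraries labelled KO. Drosha, which cuts the hairpin from the primary transcript, had 6.71 and 6.79 RPKM against 3.53 and 3.96 RPKM. Dicer1, which cuts the mature strand, had 4.26 and 1.65 RPKM against 1.97 and 1.85 RPKM. Ago2, the slicing Argonaute, had 12.1 and 5.60 RPKM against 3.30 and 5.38 RPKM. Drosha and Ago2 were lower in both libraries labelled KO, and Dicer1 overlapped. Of the 17 tested genes with at least 20 reads, 3 were lower without overlap (Tnrc6a was the other) and 4 were higher (Xpo5, Ran, Ddx5 and Ddx17), near the 21% and 22.7% of all genes. Ddx5, an RNA helicase, had 43.9 and 50.4 RPKM in WT against 89.0 and 85.3 RPKM. Over the 19 genes the median log2 fold change was 0.01, with a range from -0.83 to 1.22.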

How the data were processed

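Ribosome profiling was compared between 2 WT and 2 eIF5A-KO libraries, grouped by sample title. Per the study's methods, the authors removed low-quality, rRNA and tRNA reads, mapped with TopHat2 and counted with HTSeq on an Ensembl annotation (mm10 per the submitters' processing notes). Strand and multi-gene settings are not given in the sources used here. The deposited table held RPKM values per gene and library. RPKM times gene length gave whole multiples of 1 step for 100% of values above 0 (tolerance 0.02), which recovered whole reads. The library sizes thus implied were 602863 and 471136 for WT and 906990 and 807705 for eIF5A-KO, not the read totals, so RPKM raises WT values relative to reads. At the median gene length of 85 bases, 1 read equals 13.0 to 25.0 RPKM. No column was left unmapped (0).

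The test was limma 3.58.1 in R 4.3.3 (lmFit, eBayes with trend=TRUE) on log2(RPKM + 1), two-sided, for the 11363 genes averaging 1 RPKM or more, with Benjamini-Hochberg adjustment over all of them. Fold changes on this scale understate those of low genes that have reads in every library. Where a library was at 0 they could be inflated or reversed. Mir302a averaged 144 RPKM in WT and 41.9 RPKM in eIF5A-KO, yet its log2 fold change was 1.32. Scripts were tested on simulated data. Python 3.11.15 with pandas 2.3.3 and scipy 1.17.1 was used otherwise. Named genes were the 12 with the highest mean, the 8 lowest and 4 highest fold changes (there were 0 such higher genes) among genes with at least 20 reads and no overlap between groups, up to 10 called genes, and the strongest gene of each listed family. The genes and lists were chosen with earlier results of these data known. Coordinates are those of the table, which matched GENCODE M21 for all 263 genes. Alternatives were other pseudocounts (0.1 and 20), filters, scalings, tools, a replicate block and leaving out each library. The leave-one-out and scaling runs of limma-voom and of the count without overlap were added after seeing the data.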

Additional observations from a re-analysis of the deposited data

How the results depend on the processing

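The counts of called genes were the least stable result. The 5 lower and 1 higher calls by limma became 0 and 0 with a pseudocount of 0.1 or 20, no filter beyond a value above 0, at least 20 reads, a mean of 5 RPKM or more, the same sum of reads, trend=FALSE and each library left out. With limma-voom they were 16 and 0, and with the same sum over the 263 genes they were 4 and 4, beside 8 lower and 22 higher over all tested genes. By limma-voom, 6 to 66 of the 263 genes were called lower when a library was left out (16 to 239 over all genes) and 0 with read totals as library sizes. At an unadjusted p under 0.05 and over 2-fold, the 57 lower genes (4.29% of all tested genes) became 21 with the same sum over the 263 genes (0.493%) and 24 to 105 with a library left out (1.96% to 6.42%). The 1 higher gene (2.67%) became 0 with at least 20 reads (3.78%), 3 with quantile normalization (3.45%), 2 with the same sum of reads (13.9%), 36 with the same sum over the 263 genes (24.5%) and 6 to 16 with a library left out (1.75% to 6.42%). Over all 263 genes the median log2 fold change, -1.79 as for the 107, moved to -0.87 with a pseudocount of 20, -0.95 with quantile normalization, -1.21 with the same sum of reads and -2.52 to -0.66 with a library left out, and reversed to 0.28 with the same sum over the 263 genes. The 76 genes lower without overlap became 14 on that last scale (0.257% of all genes with at least 20 reads). They became 61 with the same sum of reads. There the median of all tested genes was 0.47, and the share of all genes without overlap was not counted. With a library left out they became 78 to 103. A group of 1 library makes this rule easier to meet: 31.6% to 39.2% of all genes were then lower without overlap. The log2 ratio of the summed RPKM stayed below 0, from -3.47 to -1.17. Machinery genes stayed at 0 calls.

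Of 514 alternative values for 33 named genes, 425 kept direction and side of the threshold, 70, all for the 6 genes called by limma, lost the call, 6 gained it, all by limma-voom, and 13 reversed. With the same sum over the 263 genes these were Mir143 (1.33), Mir151 (0.19), Mir30a (1.14), Mir320 (0.94), Mir1981 (0.015), Mir23a (0.59), Mir29a (0.21), Mir221 (0.048) and Mir199b (0.45), and with quantile normalization Mir143 (1.20), Mir30a (0.27) and Mir23a (0.18). Mir363, at 0.84 with all libraries, was at -1.18 without WT library 1 and lay between -1.18 and 2.85 with a library left out. The causes were not tested. Same-numbered libraries share only a number, and their deviations correlated at 0.112 over 8962 genes with 2 pairs. With the replicate number as a block, 0 genes were called lower and 0 higher, and the looser rule gave 77 lower and 2 higher, beside 4.46% and 2.78% of all tested genes.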
